A study of Mus musculus with 4 samples.

Results

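The 31 genes described here act in DNA mismatch repair, homologous recombination and the Fanconi pathway. They were taken by symbol from a table of read counts that lists 27179 genes by NCBI gene ID, and comprise 6 mismatch repair genes, 16 homologous recombination genes and 9 Fanconi genes. All 31 were found in the table, and all 31 were among the 13580 genes that passed the filter on low counts. MC38 is a mouse colon cancer cell line, labelled as WT in genotype. Untreated control cells and cells given IFN-γ, a cytokine made by activated T and NK cells, were each kept under normoxia or hypoxia, and poly-A RNA of each of the 4 conditions was sequenced as 1 library. IFN-γ was used at 5 ng/mL for 24 h in most experiments of this work, and the exceptions it names are comparisons of dose and time. There is no separate statement for the sequenced cells, which are not among those exceptions. Oxygen was 20% under normoxia and 1.5% under hypoxia. The counts summed to 34302971 in the control library under normoxia, 34514248 in the control library under hypoxia, 34537939 in the IFN-γ library under normoxia and 34420642 in the IFN-γ library under hypoxia. No condition had a replicate, so no difference below has a replicate check, and each gene's hypoxia and IFN-γ changes were fitted together across the 4 libraries.

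The labels were checked against marker genes. All 15 genes fixed as hypoxia markers rose under hypoxia and all 11 IFN-γ markers rose with IFN-γ at an adjusted p under 0.05 (edgeR). Car9, the hypoxia-induced carbonic anhydrase, had 422 and 324 counts under normoxia against 1733 and 1536 under hypoxia, without and with IFN-γ. Iigp1, an interferon-induced GTPase, had 92 and 88 control counts against 6755 and 8711 with IFN-γ, under normoxia and hypoxia. The 7 markers of colon epithelium were low or absent. Cdh1 and Cdx2 had 0 counts in all 4 libraries, Epcam at most 2 and Krt18 at most 2, Vil1 had 7 to 17 and Krt20 12 to 22, while Krt8, the most abundant, had 48 to 90. The deposited counts thus show little of an epithelial marker profile, and the cells are called by their line name here. Markers of other cell types were also low. Of the T cell markers Cd3g and Cd8a had 0 counts throughout and Cd3e at most 1, the leukocyte gene Ptprc had 2 to 12, the myeloid gene Adgre1 had 0 throughout while Lyz2 had 69 to 96, and the B cell gene Cd79a had 8 to 26. The endothelial markers summed to between 26 and 50 counts and the 4 fibroblast markers to between 220 and 323, led by Col1a2. A count of 0 allows up to 3 counts, which is at most 0.0876 CPM, a count scaled to the size of its library. The repair genes had between 242 and 6791 counts in each library.

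Mismatch repair removes bases that were mispaired when DNA was copied: MutS proteins find the mismatch, MutL proteins nick the new strand, and an exonuclease removes the stretch around it. Homologous recombination mends broken DNA by copying a sister molecule, after the broken ends have been trimmed. The Fanconi pathway opens crosslinks between DNA strands by attaching ubiquitin to a clamp of FANCI and FANCD2, and hands the resulting break to recombination.

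Levels of different genes were compared as TMM-normalized CPM per kilobase of each gene's longest annotated coding transcript. On this scale the 31 genes spanned a 23.3-fold range, from 1.88 for Mlh3 to 43.8 for Msh6 as means over the 4 libraries. Of the 31, 5 lay above 20 CPM per kb (Msh6, Rad50, Rad54l, Fance and Fanca), 21 between 5 and 20, and 5 below 5 (Rad51b, Fancf, Palb2, Fancm and Mlh3). Differences between libraries were much smaller than differences between genes. For 24 of the 31 genes the highest of the 4 libraries was less than 1.2 times the lowest, the median ratio was 1.15, and Msh3 varied least at 1.03 and Mlh3 most at 1.44. Together the 31 genes took 0.166% of the counts of the control library under normoxia (95% Clopper-Pearson interval 0.165% to 0.168%), 0.165% of the control library under hypoxia (0.164% to 0.167%), 0.167% of the IFN-γ library under normoxia (0.166% to 0.168%) and 0.163% of the IFN-γ library under hypoxia (0.162% to 0.165%).

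**Figure D1:**
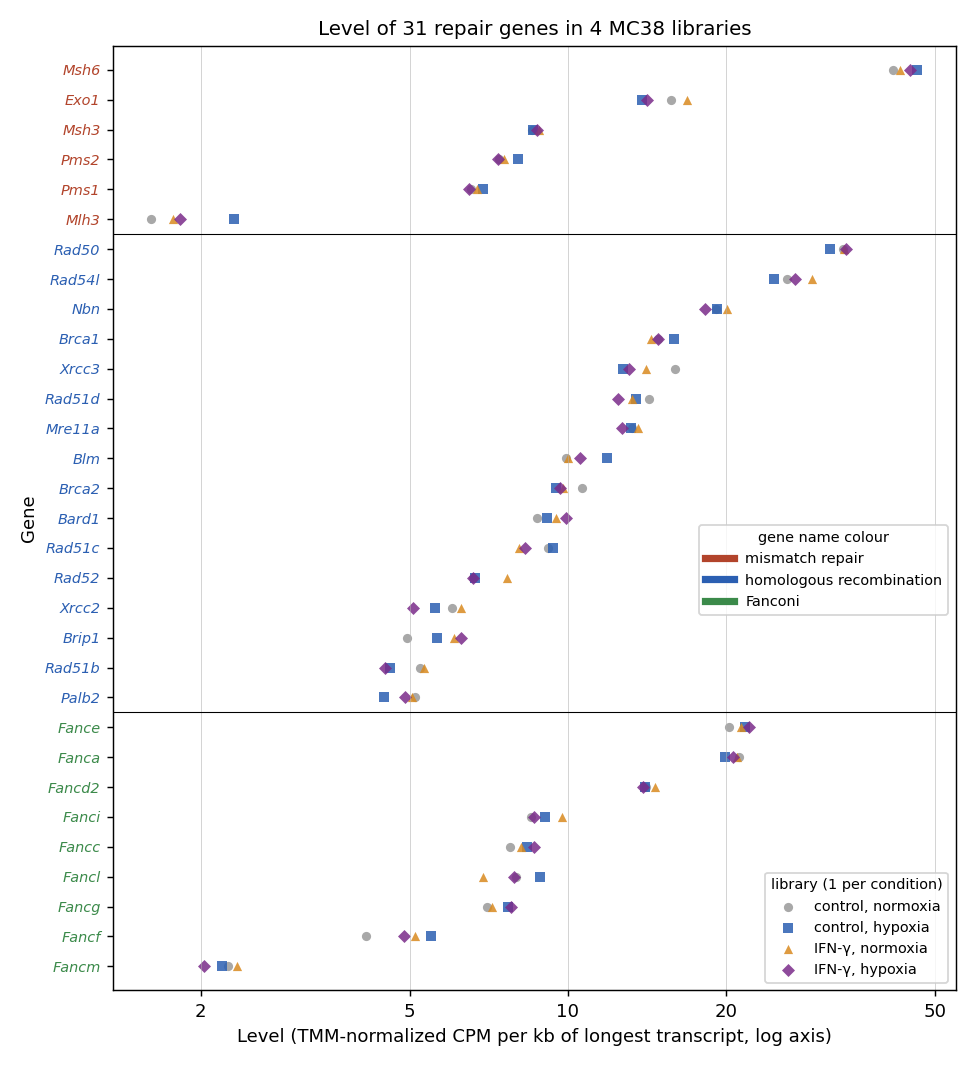
Level of each of the 31 repair genes (rows, grouped by pathway) in the 4 libraries, as TMM-normalized CPM per kilobase of the longest transcript on a log axis, with 1 point per library. Msh6 lies highest and Mlh3 lowest, and the 4 points of a gene lie close together beside the 23.3-fold range between genes.

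Of the 31 repair genes, 2 were lowered by hypoxia past the threshold, Exo1 and Xrcc3 (edgeR's quasi-likelihood fit, Benjamini-Hochberg adjusted p under 0.05 over all genes tested), beside 6.83% of all genes tested lowered by the same test. None was raised by hypoxia in edgeR, beside 8.21% of all genes tested. With IFN-γ, none was raised and none lowered in edgeR, beside 4.76% of all genes raised and 1.10% lowered. At an unadjusted p under 0.05, 5 members passed for hypoxia in either direction beside 26.5% of all genes tested, and 4 passed for IFN-γ beside 14.0%. By DESeq2's Wald test, no member passed the adjusted threshold for either stimulus, beside 5.54% of the genes it gave an adjusted p for hypoxia and 2.72% for IFN-γ. At an unadjusted p under 0.05 it called 1 member for hypoxia, beside 11.6% of all genes, and 0 for IFN-γ, beside 5.35%. The 2 lowered members are 6.45% of the 31, close to the share of all genes, so the count is not a result about the repair genes as such.

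Within mismatch repair, Exo1, the exonuclease that removes the stretch around a mismatch and also trims broken ends for recombination, gave the change with the lowest adjusted p. Its gene lies on the plus strand of chr1:175880581-175913489 (GRCm38). Exo1 had 4247 counts in the control library under normoxia, 3726 in the control library under hypoxia, 4515 in the IFN-γ library under normoxia and 3781 in the IFN-γ library under hypoxia. Both hypoxic libraries were below both normoxic ones, and in bulk RNA fewer cells with the transcript and less of it per cell cannot be told apart. The log2 ratio of hypoxia over normoxia was -0.19 without IFN-γ (95% counting interval -0.25 to -0.12) and -0.25 with IFN-γ (-0.32 to -0.19). In the fit over all 4 libraries Exo1 fell by 0.22 on the log2 scale (SE 0.061, adjusted p = 0.00388), a level 0.858 times that under normoxia. The call was kept in 4 of the 6 other fits and lost by DESeq2's Wald test (adjusted p = 0.102) and when IFN-γ was not in the model (adjusted p = 0.174), with log2 changes between -0.23 and -0.22 in all 6. Its fitted log2 change with IFN-γ was 0.07 (SE 0.061).

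The mismatch recognition subunits differed in level. Msh6, which with its MutS partner recognises single mispaired bases, had the highest level of all 31 genes, with 41.5 CPM per kb in the control library under normoxia, 46.2 in the control library under hypoxia, 42.9 in the IFN-γ library under normoxia and 44.8 in the IFN-γ library under hypoxia. Msh3, whose complex recognises small insertion and deletion loops, had 8.54, 8.58, 8.82 and 8.74 CPM per kb in the same order. Msh6 thus stood at 4.86, 5.39, 4.86 and 5.13 times Msh3 per kilobase. Msh6 counts were 6105 and 6246 under normoxia and 6791 and 6523 under hypoxia, without and with IFN-γ, higher under hypoxia in both pairs (log2 ratios 0.16, interval 0.11 to 0.21, and 0.06, interval 0.01 to 0.11). The fitted log2 change of 0.11 (SE 0.057, adjusted p = 0.194) did not pass the threshold in edgeR. For Msh3 the fitted log2 change was -0.0035 with hypoxia (95% interval -0.16 to 0.15) and 0.04 with IFN-γ (-0.12 to 0.19).

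Per kilobase the MutL subunits were lower in level than Msh6 and Msh3, with means of 7.59 for Pms2, 6.66 for Pms1 and 1.88 for Mlh3. By counts Pms2 stood above Msh3, which had 1167 to 1193. Pms2, which carries the nicking activity of the main MutL complex, had 1384 to 1525 counts, and Pms1, a MutL subunit with a lesser part in repair, had 678 to 729. Their fitted hypoxia changes were 0.04 (95% interval -0.10 to 0.19) and 0.01 (-0.17 to 0.20) on the log2 scale. Mlh3, a MutL subunit also used in meiotic crossing over, was the least abundant gene per length. Mlh3 had 305 counts in the control library under normoxia, 437 in the control library under hypoxia, 332 in the IFN-γ library under normoxia and 342 in the IFN-γ library under hypoxia. The control library under hypoxia stood above the other 3, which had 305 to 342 counts. Its log2 ratio of hypoxia over normoxia was 0.52 without IFN-γ (0.31 to 0.74) and 0.04 with IFN-γ (-0.18 to 0.27), and the fitted change of 0.29 (SE 0.122, adjusted p = 0.0971) did not pass the threshold in edgeR.

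Among the homologous recombination genes, Xrcc3 was the member past the threshold. XRCC3 pairs with RAD51C and acts in strand exchange and on recombination intermediates. The gene lies on the minus strand of chr12:111803192-111813873 (GRCm38). Of the members past the threshold, Xrcc3 has an entry in the RefSeq promoter table (GRCm38.p6) and Exo1 has none. The 250 bases before the start of Xrcc3 (chr12:111813880-111814129, minus strand) are shown because the gene passed the threshold with hypoxia in edgeR. The other fits lost that call, as given below. Matches to the searched motifs are in capitals.
Xrcc3 promoter: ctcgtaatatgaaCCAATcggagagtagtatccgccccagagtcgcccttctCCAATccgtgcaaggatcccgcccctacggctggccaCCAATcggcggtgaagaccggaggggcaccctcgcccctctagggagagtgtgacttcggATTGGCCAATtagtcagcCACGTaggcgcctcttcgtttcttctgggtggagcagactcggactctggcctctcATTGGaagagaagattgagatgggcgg
The capitals mark 6 matches to CCAAT on either strand and 1 match to the HIF motif (ACGTG or GCGTG on either strand), which lies 83 to 79 bases before the start. CCAAT was found in 37.4% and the HIF motif in 43.8% of all 32851 promoters in the table, each read from 250 bases before to 50 after the start. The E2F core (TTCCCGC or TTGGCGC), CHR (TTTGAA) and STAT (TTCNNNGAA) motifs had no match in these 250 bases.

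Xrcc3 had 1340 counts in the control library under normoxia, 1066 in the control library under hypoxia, 1169 in the IFN-γ library under normoxia and 1084 in the IFN-γ library under hypoxia. Both hypoxic libraries were below both normoxic ones, and the control library under normoxia stood highest. The log2 ratio of hypoxia over normoxia was -0.33 without IFN-γ (95% counting interval -0.44 to -0.21) and -0.11 with IFN-γ (-0.23 to 0.01), so the second pair alone did not separate from 0. In the fit Xrcc3 fell by 0.22 on the log2 scale (SE 0.079, adjusted p = 0.0400). The adjusted p was between 0.0600 and 0.475 in the 6 other fits, all of which lost the call, with log2 changes between -0.23 and -0.22.

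Rad51b, Rad51c, Rad51d and Xrcc2, whose products work in complexes with each other at broken DNA, were not past the threshold in edgeR for either stimulus. Rad51d had 1461 to 1693 counts, Rad51c 1091 to 1277, Xrcc2 565 to 698 and Rad51b 336 to 399. Per kilobase Xrcc3 and Rad51d were the highest of these 5 genes, at 14.0 and 13.4 CPM per kb over the 4 libraries, followed by Rad51c at 8.72, Xrcc2 at 5.74 and Rad51b at 4.91. With hypoxia the fitted log2 change was -0.22 for Rad51b (SE 0.12, adjusted p = 0.235), -0.21 for Xrcc2 (SE 0.095, adjusted p = 0.136), -0.09 for Rad51d (SE 0.074) and 0.03 for Rad51c (SE 0.078). With Xrcc3 included, the 5 genes had 4 negative values and 1 positive value, and their summed level was 154.7 and 143.4 CPM under normoxia against 142.0 and 133.3 under hypoxia, without and with IFN-γ. Rad51c was below its control in each IFN-γ library, with log2 ratios of -0.18 under normoxia (-0.30 to -0.07) and -0.18 under hypoxia (-0.29 to -0.06), and its fitted change of -0.18 (SE 0.078, adjusted p = 0.216) did not pass the threshold in edgeR.

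BRCA1 and BARD1 form a ubiquitin ligase that promotes end trimming, and BRIP1 is a helicase that binds BRCA1. Brca1 had 3242 to 3617 counts and Bard1 1712 to 1925, and per kilobase Brca1 stood above Bard1 in all 4 libraries, by at most 1.75 times. Brip1 had 1185 counts in the control library under normoxia, 1348 in the control library under hypoxia, 1440 in the IFN-γ library under normoxia and 1483 in the IFN-γ library under hypoxia. Both IFN-γ libraries were above both control libraries. The log2 ratio of IFN-γ over control was 0.30 under normoxia (95% counting interval 0.18 to 0.41) and 0.15 under hypoxia (0.04 to 0.26). The fitted log2 change of Brip1 with IFN-γ was 0.22 (SE 0.076, adjusted p = 0.0590), the lowest adjusted p of the 31 genes for this stimulus and not past the threshold in edgeR. For Bard1 the fitted IFN-γ change was 0.12 (95% interval -0.02 to 0.26) and for Brca1 -0.07 (-0.20 to 0.05).

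BRCA2 acts in strand exchange and PALB2 links it to BRCA1. Brca2 had 3525 to 3942 counts, highest in the control library under normoxia, and Palb2 had 579 to 664. Per kilobase Brca2 stood between 1.94 and 2.13 times Palb2. Their fitted hypoxia changes were -0.09 (95% interval -0.21 to 0.03) and -0.12 (-0.31 to 0.07) on the log2 scale. The MRN complex of MRE11, RAD50 and NBN binds broken ends and starts their trimming. Rad50 was the second most abundant of the 31 genes, with 5604 to 5969 counts, Mre11a had 2462 to 2637 and Nbn 1579 to 1744. The summed MRN level was 295.6 CPM in the control library under normoxia, 285.5 in the control library under hypoxia, 300.9 in the IFN-γ library under normoxia and 292.2 in the IFN-γ library under hypoxia. Within MRN the fitted hypoxia changes ran from -0.07 for Nbn to -0.04 for Rad50, and the fitted IFN-γ changes from -0.01 for Mre11a to 0.06 for Rad50, with no interval that left out 0.

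RAD52 anneals complementary strands, RAD54L is a motor protein that helps strand exchange, and BLM is a helicase that takes recombination intermediates apart. Rad52 had 382 to 444 counts. Rad54l had 2735 and 2575 counts without IFN-γ and 3027 and 2807 with IFN-γ, under normoxia and hypoxia, so that each IFN-γ library was above both control libraries. Its fitted log2 change was 0.15 with IFN-γ (SE 0.066, adjusted p = 0.228) and -0.10 with hypoxia (SE 0.066, adjusted p = 0.368). Blm had 1637 counts in the control library under normoxia, 1955 in the control library under hypoxia, 1633 in the IFN-γ library under normoxia and 1722 in the IFN-γ library under hypoxia. The control library under hypoxia stood highest, and the fitted hypoxia change was 0.17 (SE 0.073, adjusted p = 0.101), not past the threshold in edgeR.

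**Figure D2:**
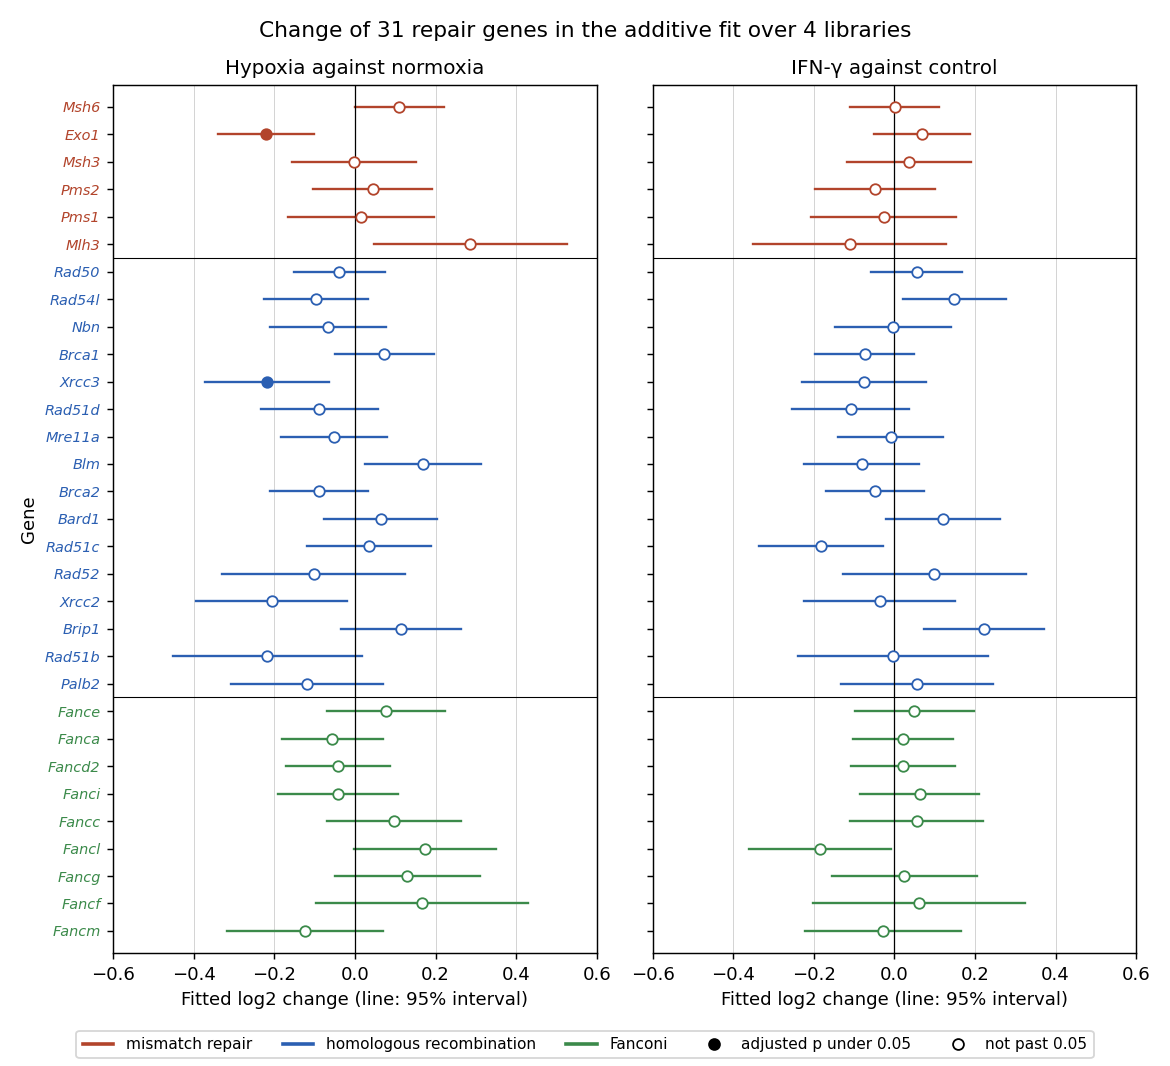
Fitted log2 change of each of the 31 repair genes with hypoxia (left) and with IFN-γ (right) in the additive fit over 4 libraries, with 95% intervals as lines and filled points for an adjusted p under 0.05. Exo1 and Xrcc3 are the filled points, both with hypoxia, and every point lies between -0.22 and 0.29.

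The Fanconi core complex attaches ubiquitin to the FANCI and FANCD2 clamp. Of its genes, the 7 among the members (Fanca, Fancc, Fance, Fancf, Fancg, Fancl and Fancm, the last of which recruits the core) did not pass the threshold in edgeR for either stimulus. At an unadjusted p under 0.05 edgeR called 0 of the 7 for hypoxia, beside 26.5% of all genes tested, and 1, Fancl, for IFN-γ, beside 14.0%, and DESeq2 called 0 at an adjusted p under 0.05 for both. FANCL is the ubiquitin ligase subunit. Fancl had 751 counts in the control library under normoxia, 834 in the control library under hypoxia, 645 in the IFN-γ library under normoxia and 737 in the IFN-γ library under hypoxia. It was higher under hypoxia and lower with IFN-γ in every pair of libraries, and the 4 counting intervals all left out 0. The fitted log2 changes were 0.17 with hypoxia (SE 0.09, adjusted p = 0.200) and -0.18 with IFN-γ (SE 0.09, adjusted p = 0.320). Neither passed the threshold.

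The remaining core genes among the members, which hold the complex together and bring it to DNA, varied in level. Fance, whose product links the core to FANCD2, and Fanca were highest, at 21.4 and 20.7 CPM per kb over the 4 libraries, with 1420 to 1534 and 3084 to 3284 counts. Fancc had 849 to 934 counts and Fancg 672 to 740. Fancf, which acts as an adaptor of the core, had the fewest counts of the 31, with 242 in the control library under normoxia, 321 in the control library under hypoxia, 297 in the IFN-γ library under normoxia and 282 in the IFN-γ library under hypoxia. The control library under normoxia stood lowest for Fancf, and its log2 ratio of hypoxia over normoxia was 0.41 without IFN-γ (0.16 to 0.66) and -0.07 with IFN-γ (-0.31 to 0.17). Fancm, which codes for the translocase that brings the core to DNA, had 541 to 625 counts and was the second lowest gene per kilobase at 2.21 CPM per kb. The summed level of these 7 genes was 226.0 CPM in the control library under normoxia, 231.5 in the control library under hypoxia, 228.6 in the IFN-γ library under normoxia and 231.8 in the IFN-γ library under hypoxia, a highest over lowest ratio of 1.03.

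FANCD2 and FANCI form the clamp that receives the ubiquitin. Fancd2 had 2620 to 2774 counts and Fanci 1368 to 1551, and per kilobase Fanci stood at 0.605, 0.645, 0.664 and 0.622 times Fancd2 in the control libraries under normoxia and hypoxia and the IFN-γ libraries under normoxia and hypoxia. Their fitted hypoxia changes were both -0.04, with 95% intervals of -0.17 to 0.09 for Fancd2 and -0.19 to 0.11 for Fanci. Fanci was highest in the IFN-γ library under normoxia, with 1551 counts.

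The repair groups were set side by side by their medians. Brca1, Brca2, Brip1, Palb2, Rad51c and Xrcc2 also carry Fanconi gene numbers and were kept in the homologous recombination group. The medians of both groups depend on that assignment. With hypoxia the median fitted log2 change was 0.03 over the 6 mismatch repair genes, -0.08 over the 16 homologous recombination genes and 0.08 over the 9 Fanconi genes, beside 0.0047 over all genes tested. Values were negative for 2 of 6, 11 of 16 and 4 of 9 genes, beside 6621 of all 13580 genes tested. The direction of the mismatch repair and Fanconi medians depended on the pair of libraries: without IFN-γ they were 0.10 and 0.10, and with IFN-γ -0.02 and -0.02, while the homologous recombination median was -0.05 and -0.07 and that of all genes tested 0.0067 and 0.0002. With IFN-γ the medians were -0.01, -0.01 and 0.02 in the same order, beside -0.01 over all genes tested, and they changed sign between the pairs for all 3 groups, from 0.05, 0.02 and 0.06 under normoxia to -0.07, -0.03 and -0.02 under hypoxia, as did the median of all genes tested, from 0.0007 to -0.02. The difference between groups was not tested. By gene, the highest of the 4 libraries was the control under hypoxia for 4 of 6 mismatch repair genes. It was the IFN-γ library under normoxia for the other 2. The 16 homologous recombination genes peaked in all 4 libraries (4, 3, 6 and 3 genes in the control under normoxia, control under hypoxia, IFN-γ under normoxia and IFN-γ under hypoxia), as did the 9 Fanconi genes (1, 2, 3 and 3). Some peaks were narrow, as for Pms1, with 729 counts in its highest library and 703 in the next. No share over all genes tested is given for these peaks, so they are not read as a difference between the groups. The summed level of the mismatch repair genes ran from 402.0 to 420.3 CPM, that of the homologous recombination genes from 883.9 to 907.3 and that of the Fanconi genes from 343.1 to 354.7.

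**Figure D3:**
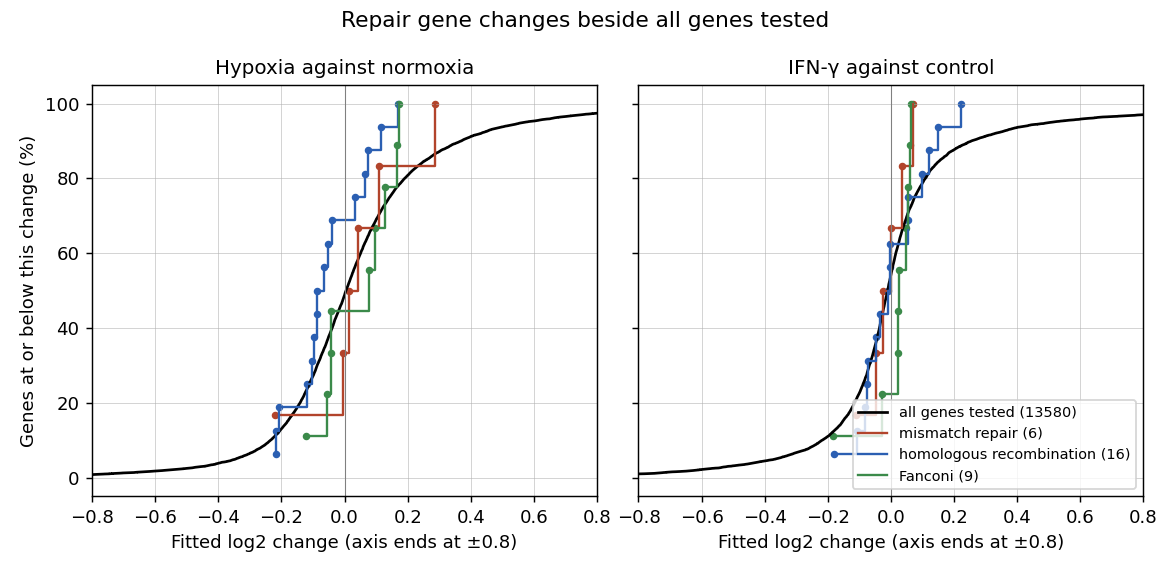
Share of genes at or below each fitted log2 change with hypoxia (left) and IFN-γ (right), for the 3 repair groups (coloured steps) and for all 13580 genes tested (black). The homologous recombination steps lie left of the black curve for hypoxia over most of the range, with a median of -0.08 against 0.0047, and with IFN-γ all 3 groups have medians between -0.01 and 0.02.

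Each fitted change averages both pairs of libraries. The 95% interval of the fitted hypoxia change lay within 0.5 on the log2 scale in either direction for 30 of the 31 genes, all but Mlh3 with an upper bound of 0.53, and that of the fitted IFN-γ change for all 31. Single pairs went further: the log2 ratio of Mlh3 with hypoxia in the absence of IFN-γ had a counting interval up to 0.74 and that of Fancf up to 0.66, and with IFN-γ the interval reached 0.56 for Fancf under normoxia and -0.55 for Mlh3 under hypoxia. The fitted intervals rest on 1 pooled spread and the single-pair intervals on counting error alone, neither on replicate cultures. The median size of the fitted change, ignoring sign, was 0.10 with hypoxia and 0.06 with IFN-γ for the 31 genes, and 0.12 and 0.08 for all genes tested.

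The hypoxia change was also set side by side with and without IFN-γ. The sign was the same in both pairs for 23 of the 31 genes, 11 higher and 12 lower under hypoxia, and opposite for 8, while 33.9% of all genes tested were higher and 31.9% lower in both pairs. Msh6 and Fancl were higher, and Exo1 and Rad54l lower, with counting intervals that left out 0 in both pairs, beside 11.7% of all genes higher and 12.2% lower by the same criterion. The interval of the difference between the pairs, from Poisson counting error alone, left out 0 for 10 of the 31 genes, beside 30.3% of all genes tested and 36.1% of the 9410 genes with at least the mean count of the lowest member. The difference was largest for Fancf (-0.48, interval -0.82 to -0.15) and Mlh3 (-0.48, -0.78 to -0.17), followed by Fanci (-0.27, -0.42 to -0.12), and it was 0.22 (0.05 to 0.39) for Xrcc3. With 1 library per condition an interaction of the stimuli and a difference between cultures cannot be told apart, and the difference was not tested. For IFN-γ, 9 genes were higher and 4 lower in both pairs, beside 25.9% and 30.2% of all genes tested, and 18 had opposite signs. Bard1, Brip1 and Rad54l were higher, and Rad51c, Rad51d and Fancl lower, with counting intervals that left out 0 in both IFN-γ pairs, beside 7.33% of all genes higher and 5.42% lower by the same criterion. These shares depend on depth, and whether the members differ from other genes in them was not tested.

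**Figure D4:**
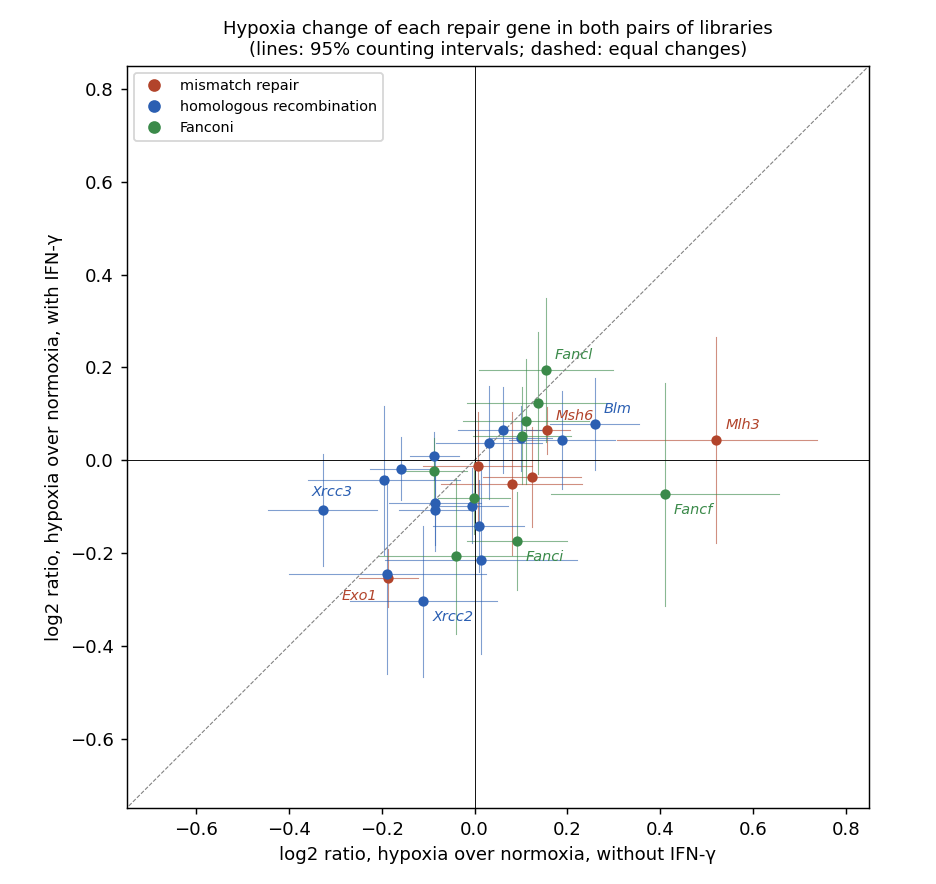
Log2 ratio of hypoxia over normoxia for each of the 31 repair genes without IFN-γ (horizontal) and with IFN-γ (vertical), with 95% counting intervals as lines and equal changes dashed. Exo1 lies below 0 on both axes, while Mlh3 and Fancf lie to the right at 0.52 and 0.41 with vertical values of 0.04 and -0.07.

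Genes that work beside the members were read from fixed lists. Of 25 other recombination genes, hypoxia raised 1 and lowered 2, and IFN-γ raised 2 in edgeR, whereas DESeq2 called 0 for hypoxia and 1 for IFN-γ. Over all genes tested, edgeR raised 8.21% and lowered 6.83% with hypoxia and raised 4.76% with IFN-γ. DESeq2 called 5.54% of the 10157 genes it gave an adjusted p for hypoxia, and 2.72% of all genes tested for IFN-γ. The counts for the 25 genes are therefore not read as a result about the list. Wrn, a RecQ helicase like Blm, was the gene raised by both stimuli, with 891 counts in the control library under normoxia, 1144 in the control library under hypoxia, 1345 in the IFN-γ library under normoxia and 1460 in the IFN-γ library under hypoxia. Every treated library was above the untreated control for Wrn, with fitted log2 changes of 0.48 with IFN-γ (SE 0.078, adjusted p = 3.28e-08) and 0.24 with hypoxia (SE 0.078, adjusted p = 0.0225). Rmi2, a subunit of the complex in which BLM acts, had 394 and 322 control counts and 480 and 516 with IFN-γ, under normoxia and hypoxia, a fitted change of 0.49 (SE 0.114, adjusted p = 0.000426). Psmc3ip and Rtel1 fell with hypoxia by 0.23 and 0.19 on the log2 scale.

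Of 16 tested mismatch repair partners and resynthesis genes, hypoxia raised 1, the polymerase delta subunit Pold4 (0.41, adjusted p = 0.00469), and lowered 3, with Pold2 at -0.22 and Rpa2 at -0.18. Of 16 other crosslink repair genes hypoxia lowered 3, the core gene Fancb at -0.31 (adjusted p = 0.0233), Faap24, a partner of FANCM, at -0.28 (adjusted p = 0.0378), and Faap100, a further core gene named here after its values were seen, at -0.26 (adjusted p = 0.0436). Of the other repair routes, hypoxia lowered 0 of 10 end joining genes in edgeR, 2 of 16 tested base excision genes, Apex1 at -0.34 and Ung at -0.22, and 3 of 13 nucleotide excision genes, with Ercc8 at -0.34 and Gtf2h1 at -0.24. Of the 71 tested genes of these 5 lists, edgeR called 0 for IFN-γ, with 5 at an unadjusted p under 0.05 and 0 by DESeq2 at an adjusted p under 0.05. For hypoxia edgeR raised 1 of the 71 (1.41%) and lowered 11 (15.5%), beside 8.21% and 6.83% of all genes tested. DESeq2 called 1 of the 71, beside 5.54% of all genes with an adjusted p, and the difference between the lists and other genes was not tested. The list medians lay between -0.09 and -0.02 for hypoxia.

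Many repair genes are transcribed when cells copy their DNA, so replication genes were read in the same libraries. Of 27 S phase genes hypoxia raised 1, Ccne2 at 0.27, and lowered 6, with Gins3 at -0.26 and Tyms at -0.25, and the median was -0.10, beside 8.21% of all genes raised and 6.83% lowered. Their summed level was 6599 CPM in the control library under normoxia, 6292 in the control library under hypoxia, 6775 in the IFN-γ library under normoxia and 6310 in the IFN-γ library under hypoxia, so the hypoxic libraries were the lower ones, as for Exo1. Whether this bears on Exo1 or Xrcc3 was not tested. Of 13 mitosis genes hypoxia raised 1, Bub1 at 0.47, and lowered 2, Cdc20 at -0.21 and Ccna2 at -0.17. Their summed level was higher under hypoxia without IFN-γ (3590 CPM under normoxia, 3649 under hypoxia) and lower with IFN-γ (3779 and 3684). Of 17 E2F and DREAM factors hypoxia raised 2, Rb1 at 0.40 and Rbl1 at 0.16, and lowered 4, with E2f8 at -0.27 and E2f3 at -0.23. The summed level of these factors was 1454 and 1327 CPM without IFN-γ and 1447 and 1411 with IFN-γ, under normoxia and hypoxia. IFN-γ raised Rrm2 (0.17) and lowered Gins2 (-0.21) among the S phase genes, raised Top2a (0.28) among the mitosis genes and changed 0 of the E2F and DREAM factors in edgeR, with 2 at an unadjusted p under 0.05 and 0 by DESeq2. DESeq2 gave fewer calls with hypoxia at an adjusted p under 0.05. It called 1 S phase gene where edgeR called 7, and 1 mitosis gene where edgeR called 3. It called 0 E2F and DREAM factors (5 at an unadjusted p under 0.05) where edgeR called 6. With IFN-γ DESeq2 called 0 S phase genes where edgeR called 2, Rrm2 and Gins2, and 1 mitosis gene where edgeR called 1.

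Promoter entries were found for 25 of the 31 members. There was none for Exo1, Rad50, Rad51d, Xrcc2, Nbn and Fancd2. In windows from 250 bases before to 50 after the start, the E2F core was found for 13 of the 25, beside 6.81% of all promoters, and CCAAT for 17 of the 25, beside 37.4%. The E2F core was present for 4 of 5 mismatch repair, 5 of 12 homologous recombination and 4 of 8 Fanconi genes with an entry. The HIF motif was found for 14 of the 25 beside 43.8% of all promoters, the CHR for 2 beside 17.9% and the STAT motif for 2, Rad54l and Fancl, beside 8.30%. A match describes letters in the window and is not evidence of a bound site, and 4 of the 25 members had more than 1 entry and so more than 1 chance of a match. The shares of all promoters are per entry and include genes not tested here. No share over the tested genes is given, so the counts are not read as particular to the repair genes.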

How the data were processed

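Counts of reads per gene were deposited by the authors as whole numbers for 4 libraries, 1 per condition, without normalization. Per the labels, poly-A RNA was made into strand-specific libraries and read from both ends at 100 bases. Reads were aligned with HISAT2 by the methods text, and the submitters' processing notes name featureCounts and mm10 (the same assembly as GRCm38). How strand, overlapping genes and reads with several matches were counted is not given in the sources used here. All 4 columns carried a sample's name.

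Symbols came from an NCBI table for GRCm38.p6, which matched 25275 of 27179 IDs and left 1904 unnamed. All 31 members matched by current symbol. The members and lists were chosen with earlier results of these data known. Changes were fitted with edgeR 4.0.16 in R 4.3.3 (quasi-likelihood, TMM, filterByExpr with a minimum of 10 counts, additive model of oxygen and IFN-γ, Benjamini-Hochberg adjustment at 0.05). The hypoxia fit was also run on simulated counts, with folds larger than those of the members, the fit's own dispersion and no interaction. That run does not cover changes as small as those of the members, nor variation between cultures. The fit has 1 residual degree of freedom per gene, and edgeR pooled the spread over all genes into 1 value (dispersion 0.00222, coefficient of variation 4.71%). Culture-to-culture variation and any interaction of the stimuli both enter that value, and the adjusted p-values are no substitute for replicate cultures. Single-pair log2 ratios used TMM-scaled counts with 0.5 added and 95% Clopper-Pearson intervals, and differences of ratios a Poisson interval. All such intervals and the floor of 3 counts cover counting error only.

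Lengths are those of the longest coding transcript in GENCODE M21, which need not be the one expressed, so rankings per kilobase depend on that choice. For each member the share of its words of 31 bases that occur in another annotated gene was computed: the median was 0.82%, and 2 members were above 5%, Msh6 at 10.7% and Pms1 at 7.63%. Exons of 6 members overlapped a gene on the opposite strand over more than 10% of their bases (Fancc 18.6%, Fanci 16.0%, Rad54l 15.4%, Fancf 15.0%, Fancl 13.7% and Fanca 10.5%), and Pms2 overlapped a gene on the same strand over 5.90%. Counts of these genes are uncertain for that reason, and the shares do not measure by how much. Exo1 overlapped none and Xrcc3 overlapped Klc1 over 0.44%.

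Members past the threshold are given with 4 counts, both single-pair changes and the fitted change, and every other member with its range of counts or its change. Some other members (Mlh3, Msh6, Brip1, Blm, Rad54l, Rad51c, Fancl and Fancf) are given in more detail, and were chosen after their values were seen. From each other list, the 2 raised and 2 lowered genes of largest log2 change were named among those past the threshold, with 50 or more counts per library on average and pairs of equal sign. Msh4 and Neil2 did not pass the filter, and 1 cell type marker is not reported here. Promoters and motifs were read from a RefSeq table (GRCm38.p6). Alternatives were DESeq2 size factors, library totals alone, other filters, 1 stimulus without the other in the model, DESeq2 1.42.0 (Wald test), other thresholds, each pair alone and 5 counts added in place of 0.5. Tables and plots were made in Python 3.11.15 with scipy 1.17.1 and matplotlib 3.10.9.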

Additional observations from a re-analysis of the deposited data

How the results depend on the processing

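The number of repair genes past the threshold with hypoxia was 2 in the fit as reported, beside 15.0% of all genes tested. At an unadjusted p under 0.05 that fit gave 5, beside 26.5%. The number past the threshold was 1 with DESeq2 size factors (beside 13.4% of all genes), 1 with library totals alone (13.4%), 1 without a filter on low counts (7.83%) and 1 with at least 10 counts in every library (14.0%). It was also 1 when both pairs had to share the sign with intervals without 0. The gene was Exo1 in each case. It was 0 when IFN-γ was not in the model, beside 1.3% of all genes (edgeR, 2 members at an unadjusted p under 0.05, beside 16.8%). By DESeq2's Wald test it was 0, beside 5.54% of genes with an adjusted p (1 member at an unadjusted p under 0.05, beside 11.6%). In these settings the calls over all genes also dropped, from 2042 to 176 and 563. The cause of these losses was not tested. The number with IFN-γ was 0 in edgeR as reported, beside 5.86% of all genes, and 0 in the 6 other fits, beside 1.78% to 5.08%. At an unadjusted p under 0.05 it was 4 in the fit as reported, beside 14.0%. The sign of the fitted hypoxia change was kept for all 31 members in the 6 other fits. For IFN-γ it turned for members near 0: Msh6 was at -0.0157 with library totals alone and at -0.0008 without oxygen in the model, Rad51b at 0.0064, Mre11a at 0.0006 and Nbn at 0.0066 without a filter, and Rad51b at 0.0033 and Nbn at 0.0035 with at least 10 counts in every library. Over the alternatives, pairs alone included, the hypoxia median ranged from -0.02 to 0.10 for mismatch repair, from -0.09 to -0.05 for homologous recombination and from -0.02 to 0.10 for Fanconi genes. The IFN-γ median ranged from -0.07 to 0.05, from -0.03 to 0.02 and from -0.02 to 0.06 in the same order. For homologous recombination the IFN-γ median turned to 0.0035 without a filter on low counts and to 0.0004 with at least 10 counts in every library. The fit as reported already compares hypoxia within each IFN-γ state and IFN-γ within each oxygen state, and leaving out a library leaves 3 libraries for 3 coefficients. Depth limits the least counted members most: the SE of the log2 change ran from 0.057 for Msh6 to 0.134 for Fancf.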
